A study of Mus musculus with 3 samples.

Results

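The cells described here are 281 barcodes that carried both the genes of type 1 conventional dendritic cells (cDC1) and at least 1 transcript of Cd209a, a lectin gene better known from type 2 cells (cDC2). They were selected on their own measured values, from 28903 barcodes past the quality limits in 3 single-cell libraries. Quality limits were a minimum of 1000 transcript molecules (UMIs) and 500 genes per barcode, with mitochondrial UMIs no higher than 10%. It then needed a UMI of at least 4 of the 9 genes Xcr1, Clec9a, Batf3, Naaa, Ifi205, Rab7b, Cadm1, Tlr3 and Gcsam, at most 1 Siglech UMI, and 0 UMIs of Ccr7 and Fscn1. These conditions form the cDC1 gate, which 2097 barcodes passed. The Cd209a-positive cells are those of the gate with at least 1 Cd209a UMI, and the other 1816 cells of the gate are the Cd209a-negative cells. Because Cd209a and the gate genes chose the cells, their levels are given as a description and no test was run on them.

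The cDC1 and cDC2 are the main lineages of conventional dendritic cells. The cDC1 depend on the transcription factors Irf8, Batf3 and Id2, carry the chemokine receptor Xcr1 and the dead-cell receptor Clec9a, and are known for presenting antigen from dead cells to cytotoxic T cells. The cDC2 depend on other factors, among them Irf4 and Zeb2, and carry lectins such as Clec10a and Cd209a. Cd209a is 1 of several mouse relatives of the human receptor DC-SIGN, a lectin that binds mannose-rich and fucosylated sugars on microbes. A droplet that catches a cell of each lineage also yields a barcode with both gene sets, and so does free RNA taken up with a cell.

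All 3 libraries held dendritic cells from in vitro cultures of wild-type C57BL/6 mouse cells with FLT3L, a cytokine needed for dendritic cells to form. The control culture had 2 mM glutamine, the low-glutamine culture had 50 µM glutamine, and the DON culture had 2 mM glutamine with 1 µM DON, a glutamine analogue that blocks enzymes using glutamine. There was 1 library per culture condition, so no difference between conditions could be tested, and the 95% intervals below cover counting error only. Such cultures are a model of dendritic cells without the signals of a tissue. The libraries held 87611658 to 92002827 UMIs in 8962 to 10497 barcodes. Between 20 and 31 barcode sequences occurred in each pair of libraries, and none marked a Cd209a-positive cell in both. In 2 of these pairs 1 shared sequence marked a Cd209a-positive cell in either library, and in the remaining pair 0 did.

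The mouse Cd209 genes lie together on chromosome 8. In GENCODE vM21 on the GRCm38 build, Cd209a (ENSMUSG00000031494) is a protein-coding gene on the minus strand at chr8:3743397-3748984, and Cd209e (ENSMUSG00000040197) is one at chr8:3847965-3854309, also on the minus strand. The windows around their start sites are shown because transcripts of these 2 family members were the most frequent of the family in cDC1-gate cells at 50 µM glutamine, with 283 and 77 UMIs. Each RefSeq window (GRCm38.p6, minus strand) has 250 bases before and 50 bases after the annotated start. Capitals mark every run of at least 10 bases that both windows hold.
Cd209a, chr8:3748935-3749234: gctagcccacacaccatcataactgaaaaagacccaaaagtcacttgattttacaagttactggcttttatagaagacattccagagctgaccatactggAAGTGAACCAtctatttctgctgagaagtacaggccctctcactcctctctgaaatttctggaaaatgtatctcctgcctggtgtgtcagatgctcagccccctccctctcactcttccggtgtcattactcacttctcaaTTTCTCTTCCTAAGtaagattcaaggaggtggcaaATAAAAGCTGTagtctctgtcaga
Cd209e, chr8:3854237-3854536: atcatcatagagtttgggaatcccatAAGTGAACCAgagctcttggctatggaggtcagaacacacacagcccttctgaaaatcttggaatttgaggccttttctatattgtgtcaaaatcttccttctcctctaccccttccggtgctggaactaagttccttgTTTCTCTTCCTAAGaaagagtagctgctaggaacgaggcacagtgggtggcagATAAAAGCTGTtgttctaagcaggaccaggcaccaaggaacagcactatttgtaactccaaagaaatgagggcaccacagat
The windows share 3 such runs, of 10, 14 and 11 bases in the order printed. On either strand, the run AAGTGAACCA occurred in 0.0731% of the 32851 windows of the same table, TTTCTCTTCCTAAG in 0.00913% and ATAAAAGCTGT in 0.0274%. These are shared letters of 2 related genes and say nothing of which factor binds there.

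The first question was how common the Cd209a-positive cells were. They made up 119 of 1277 cDC1-gate cells in the control (9.32%, exact binomial 95% interval 7.78 to 11.0%), 100 of 240 at 50 µM glutamine (41.7%, 35.4 to 48.2%) and 62 of 580 with DON (10.7%, 8.29 to 13.5%). The cDC1 gate was much smaller at 50 µM glutamine, while the number of Cd209a-positive cells was similar to the control. Cells with 3 or more Cd209a UMIs numbered 42 at 50 µM glutamine and 25 in the control. What set the larger share was not tested. The intervals of the control and DON overlapped, and that of 50 µM glutamine lay above both. In the cDC2 gate (at least 2 of 6 cDC2 genes and at most 1 of the 9 cDC1 genes) the share of cells with Cd209a went the other way, at 26.9% in the control, 17.9% at 50 µM glutamine and 20.4% with DON.

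Free RNA can put a Cd209a UMI into a cell that does not express the gene. In plasmacytoid (pDC) gate cells, a lineage not known for Cd209a, 4.96% of control cells, 5.22% of cells at 50 µM glutamine and 3.20% of DON cells had a Cd209a UMI. Those cells were shallower, with medians of 5362, 5240.5 and 6356 UMIs against 9782, 9261.5 and 11542.5 in the cDC1 gate. With every cell thinned to 2000 UMIs, 1.72% of control cDC1-gate cells (1.08 to 2.60%) and 1.76% of control pDC-gate cells (1.23 to 2.44%) had Cd209a. The control share of the cDC1 gate thus did not exceed that of the pDC gate at equal depth. Without thinning it was 9.32% (7.78 to 11.05%) against 4.96% (4.05 to 6.00%), and those intervals were apart. Free RNA itself was not measured, and its part in either comparison was not tested. At 50 µM glutamine the thinned share was 16.7% (12.2 to 22.0%) in the cDC1 gate, above the 2.11% of the pDC gate (1.35 to 3.15%) and the 8.83% of the cDC2 gate (7.60 to 10.2%). With DON it was 2.07% (1.07 to 3.59%) against 1.14% (0.699 to 1.76%) in the pDC gate, and these intervals overlapped. Thinning left out 1 cDC1-gate cell of the control and at most 5 pDC-gate cells of a library as too shallow.

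**Figure D1:**
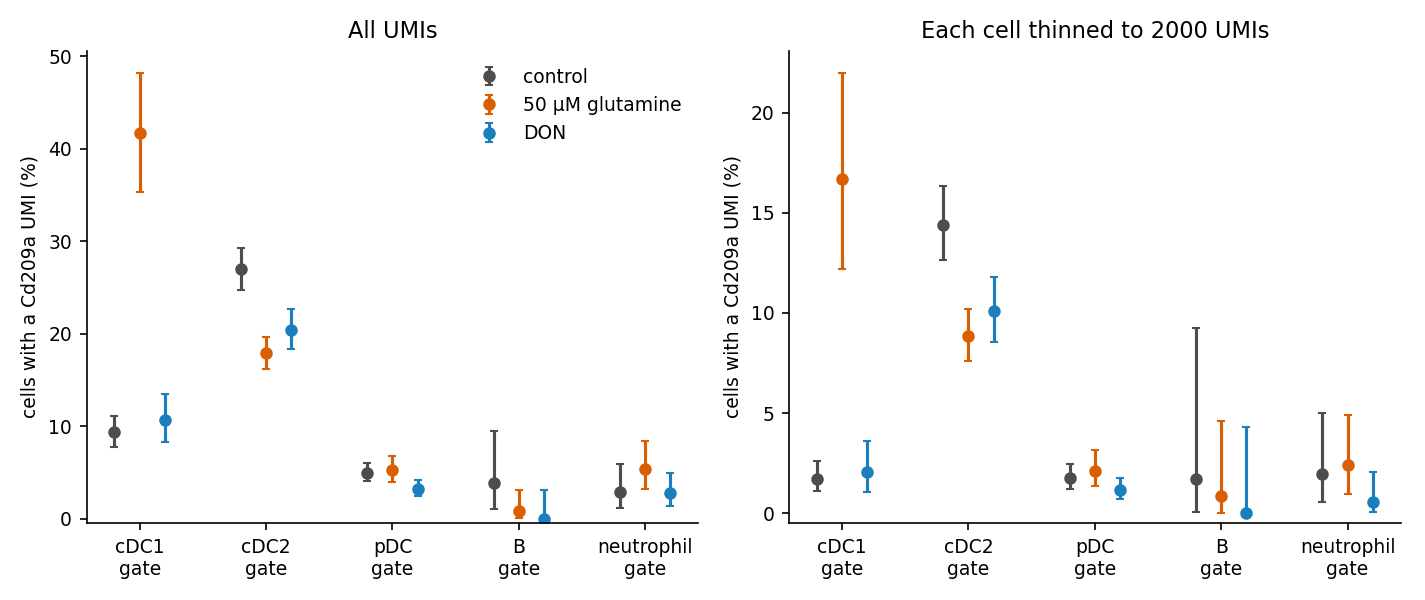
Percent of cells with at least 1 Cd209a UMI in 5 gates of each library, with exact 95% intervals, from all UMIs (left) and after thinning each cell to 2000 UMIs (right). Only the cDC1 gate at 50 µM glutamine, at 41.7% and 16.7%, exceeded the cDC2 gate of its own library.

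Summed over all cells of the cDC1 gate, Cd209a stood at 16.2 counts per 1000000 UMIs of the gate (CPM) in the control (exact Poisson 95% interval 14.2 to 18.4), 114 at 50 µM glutamine (100.7 to 128) and 19.8 with DON (16.7 to 23.3). The pDC gate had 13.8 (11.8 to 15.98), 11.7 (9.44 to 14.4) and 8.10 (6.64 to 9.79). By this measure the control intervals of the cDC1 and pDC gates overlapped, while the DON cDC1 gate was above its pDC gate. B-lineage and neutrophil gates, 2 further comparison classes, lay between 0 and 19.8 CPM.

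The 2 sides of the Cd209a threshold were as follows. In the control, 74 cells had 1 Cd209a UMI, 20 had 2 and 25 had 3 or more. At 50 µM glutamine the numbers were 39, 19 and 42, and with DON 34, 11 and 17. Cells with 3 or more UMIs were thus 1.96% of the control gate, 17.5% of the gate at 50 µM glutamine and 2.93% of the DON gate. In pDC-gate cells that share was 0.501%, 0.549% and 0.285%, at lower depth. At the other edge of the rule, cells with 4 of the 9 cDC1 genes had Cd209a in 11.5% (control), 33.7% (50 µM) and 11.6% (DON) of cases, and cells just outside with 3 of the genes in 13.6%, 26.0% and 12.5%.

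Depth and doublet marks were examined next. The Cd209a-positive cells had a median of 12074 UMIs in the control, 10206 at 50 µM glutamine and 13450.5 with DON. Medians of the Cd209a-negative cells were 9604.5, 9151 and 11400.5, so the ratio of medians was 1.26 (1.14 to 1.45), 1.12 (0.952 to 1.29) and 1.18 (1.01 to 1.45). The same gates were also applied to cells thinned to 4000 UMIs, which left 22, 28 and 11 Cd209a-positive cells. Their full depths had a median of 9813 UMIs in the control (7221 to 14403) against 9801 in Cd209a-negative cells. The medians at 50 µM glutamine were 7498.5 (6956 to 8764) and 8604, and with DON 9573 (8230 to 13803) and 11249. The ratios were 1.00, 0.872 and 0.851, with intervals wide enough in the control and with DON to hold an excess of the size seen without thinning.

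Scrublet, which scores each barcode against simulated pairs of cells of its own library, marked 8.62%, 4.98% and 5.85% of all barcodes in the control, 50 µM and DON libraries. Its score threshold was set for each library, at 0.204, 0.262 and 0.233, so marked shares of different libraries have no common threshold. Among Cd209a-positive cells it marked 23 of 119 in the control (19.3%, 12.7 to 27.6%), 6 of 100 at 50 µM glutamine (6.00%, 2.23 to 12.6%) and 0 of 62 with DON (exact upper bound 5.78%). Among Cd209a-negative cells the shares were 4.15%, 0.714% and 3.09%. The intervals of the 2 classes were apart in the control (3.07 to 5.46% in Cd209a-negative cells) and overlapped at 50 µM glutamine and with DON. In the control, marks were most frequent at the highest Cd209a counts, with 10 of 25 cells with 3 or more UMIs, whereas 1 of 42 such cells was marked at 50 µM glutamine and 0 of 17 with DON. Marked barcodes were kept in the main analysis. Without them the mean share of Cd209a-negative cDC1-gate cells among the 20 nearest cells, described below, was 72.7% in place of 64.5% in the control, and Oasl2, Clec2i, Clec4a1 and Ngp were no longer among the genes called between the classes.

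**Figure D2:**
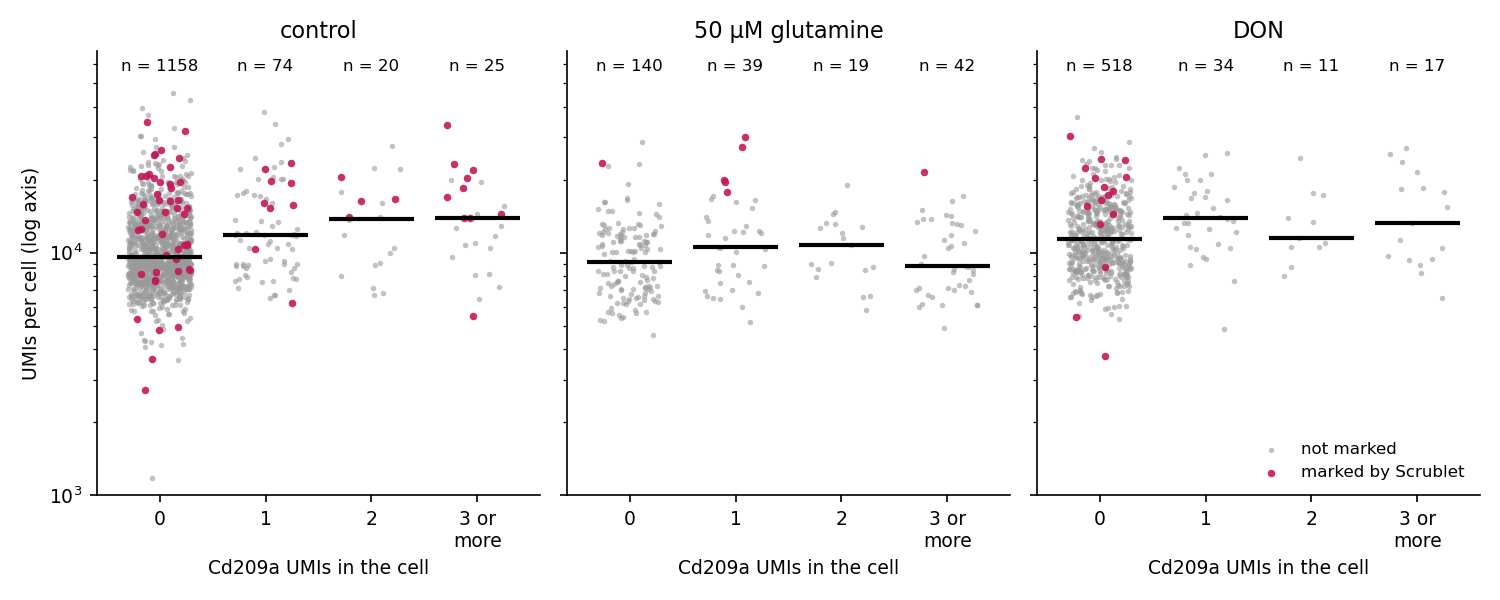
UMIs per cell (log axis) of cDC1-gate cells by their number of Cd209a UMIs in each library. Points are cells, black lines are medians, and coloured points are barcodes marked by Scrublet, which include 10 of the 25 control cells with 3 or more Cd209a UMIs and 1 of the 42 at 50 µM glutamine.

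A doublet of a cDC1 with a cDC2 would carry many cDC2 transcripts beside Cd209a. To place the Cd209a-positive cells between the lineages, genes were taken that differed at least 4-fold between Cd209a-negative cDC1-gate cells and Cd209a-positive cDC2-gate cells in all 3 libraries, without the gate genes and without reference to the cells of interest. There were 25 genes higher in cDC2 and 12 higher in cDC1. The level of each gene in the Cd209a-positive cDC1-gate cells was then expressed on a scale from 0% (Cd209a-negative cDC1) to 100% (Cd209a-positive cDC2). Over the 25 cDC2 genes the median was 16.6% in the control (quartiles 14.7 and 20.8%), 7.90% at 50 µM glutamine (0.934 and 10.6%) and 8.72% with DON (4.85 and 15.7%). Over the 12 cDC1 genes it was 19.1%, 3.23% and 11.0%. Without barcodes above 15000 UMIs the cDC2-gene medians were 6.14%, 0.947% and 1.65% and the cDC1-gene medians 25.1%, -12.9% and 5.35%. The cDC2-gene median at 50 µM glutamine was also 0.933% with a higher minimum level of the genes, 3.85% with at least 2 Cd209a UMIs and -0.465% with gates on thinned cells, and the cDC1-gene median was -4.26% without Scrublet-marked barcodes. Cd209a itself, which the rule used, stood at 38.5%, 78.3% and 50.2% of its level in Cd209a-positive cDC2-gate cells.

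By both gene sets the median shift was lowest in the 50 µM library. There 21 of the 25 cDC2 genes and 10 of the 12 cDC1 genes had a lower position than in the control. With DON 19 of the 25 and 11 of the 12 did, so lower positions were common to both treated libraries. The Cd209a-negative class can hold cells whose Cd209a went undetected. At 50 µM glutamine, thinning to 2000 UMIs lowered the share of cDC1-gate cells with Cd209a from 41.7% to 16.7%. In the control it fell from 9.32% to 1.72%. How many undetected cells each library held was not measured. The genes named next were chosen after their values were seen. S100a4, a calcium-binding protein of cDC2, was at 411 CPM in Cd209a-positive and 426 in Cd209a-negative cells at 50 µM glutamine. It was at 645 against 243 in the control and 716 against 377 with DON. In cDC2-gate cells it was between 2186 and 2649. The membrane protein genes Ms4a4c and Tmem176b had the same order. Ms4a4c was at 84.9 against 82.4 at 50 µM glutamine and at 142 against 49.7 in the control. Tmem176b was at 114 against 105 at 50 µM glutamine and at 86.1 against 29.4 in the control. The 4 cDC2 genes that went the other way were Lilrb4a (25.1% of the way at 50 µM glutamine and 21.5% in the control), Tnip3 (26.3% and 24.2%), Cd93 (16.7% and 15.1%) and Clec4a3 (12.4% and 3.44%). In the control all 25 cDC2 genes were above their Cd209a-negative level, and at 50 µM glutamine and with DON 24 of 25 were.

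**Figure D3:**
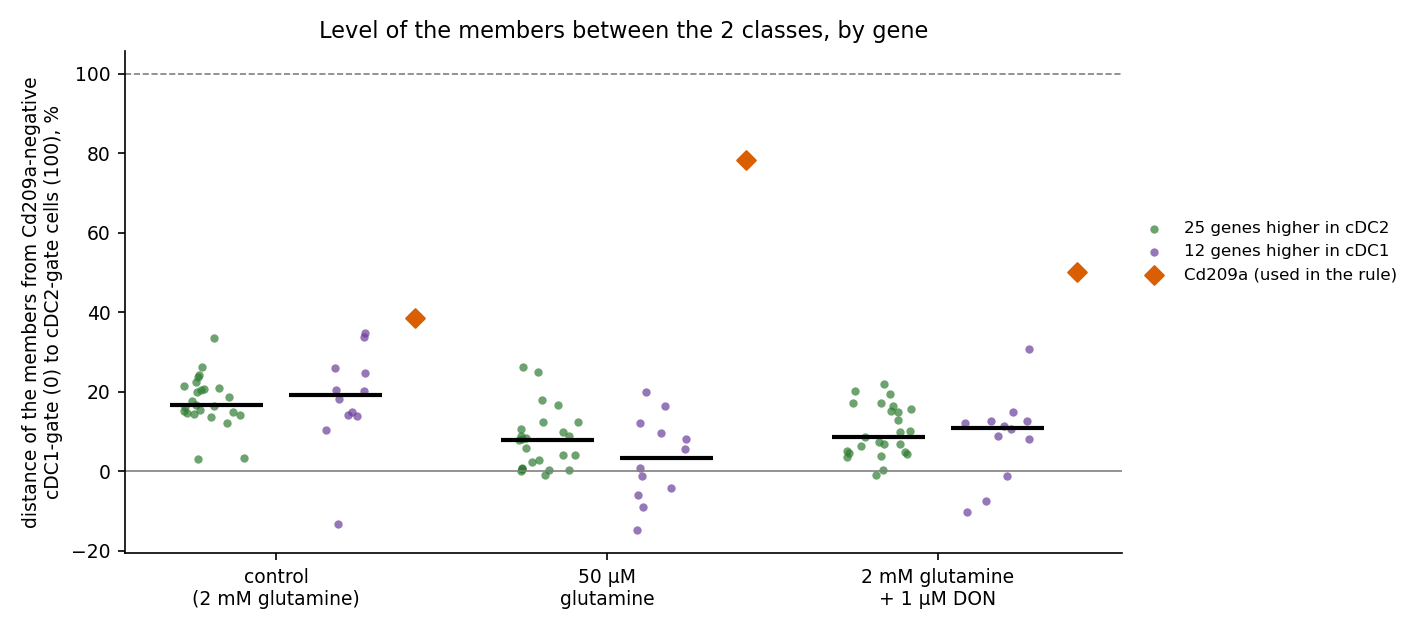
Level of each gene in Cd209a-positive cDC1-gate cells as a percent of the way from Cd209a-negative cDC1-gate cells (0) to Cd209a-positive cDC2-gate cells (100), for 25 genes higher in cDC2, 12 genes higher in cDC1 and Cd209a. Black lines are medians. At 50 µM glutamine the medians are 7.90% and 3.23%. Cd209a, which the rule used, is shown as a description.

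In the control the shift was larger in cells with more Cd209a UMIs. By the cDC2 genes, control cells with 1, 2 and at least 3 Cd209a UMIs were at 14.04%, 20.6% and 23.1%, and by the cDC1 genes at 12.4%, 25.6% and 35.4%. The same cells at 50 µM glutamine were at 8.05%, -5.19% and 8.29% by the cDC2 genes, with no order, and at 11.8%, 5.61% and -6.35% by the cDC1 genes, a falling order. With DON they were at 4.61%, 18.1% and 11.9% by the cDC2 genes and at 7.26%, 9.52% and 17.0% by the cDC1 genes, which rose in order. These strata held as few as 11 cells, and their differences were not tested. Without Scrublet-marked barcodes the control median over the cDC2 genes was 11.2%.

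Single cells were placed by the share of cDC2-gene UMIs among the UMIs of all 37 genes. The median share was 15.3% in Cd209a-positive and 5.38% in Cd209a-negative control cells, 13.04% and 12.7% at 50 µM glutamine, and 13.3% and 10.3% with DON. Cd209a-positive cDC2-gate cells had 90.8%, 93.5% and 93.4%. Above the 95th percentile of the Cd209a-negative cells lay 21 of 119 Cd209a-positive cells in the control (17.6%, 11.3 to 25.7%), 6 of 100 at 50 µM glutamine (6.00%, 2.23 to 12.6%) and 10 of 62 with DON (16.1%, 8.01 to 27.7%). By construction 5% of Cd209a-negative cells lie there, and 3 to 7 Cd209a-positive cells of each library were within 5 points of the limit. Only 3, 3 and 1 Cd209a-positive cells reached the range of cDC2-gate cells.

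In the control, 50 µM and DON libraries 43, 14 and 25 Cd209a-positive cells had more than 15000 UMIs. These outnumbered the cells above that limit, so not every deep cell lay there. The cells above the limit were deeper by median. Their median was 19739 UMIs in the control, 18327 at 50 µM glutamine and 18126.5 with DON, against 11214, 9033 and 12945.5 in the remaining Cd209a-positive cells. Scrublet marked 14 of the 21 in the control, 3 of the 6 at 50 µM glutamine and 0 of the 10 with DON. Of the remaining cells it marked 9 of 98, 3 of 94 and 0 of 52. Above the limit were also 58, 7 and 26 Cd209a-negative cells, whose depth and marks are not given here. So in the control and with DON a minority of Cd209a-positive cells, deeper by median, lay above the limit in excess of the 5% set by construction. At 50 µM glutamine the share of 6.00% was near that 5%. Within the range of Cd209a-negative cells lay 98, 94 and 52 cells. The part of doublets in either group was not tested beyond these marks and depths.

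**Figure D4:**
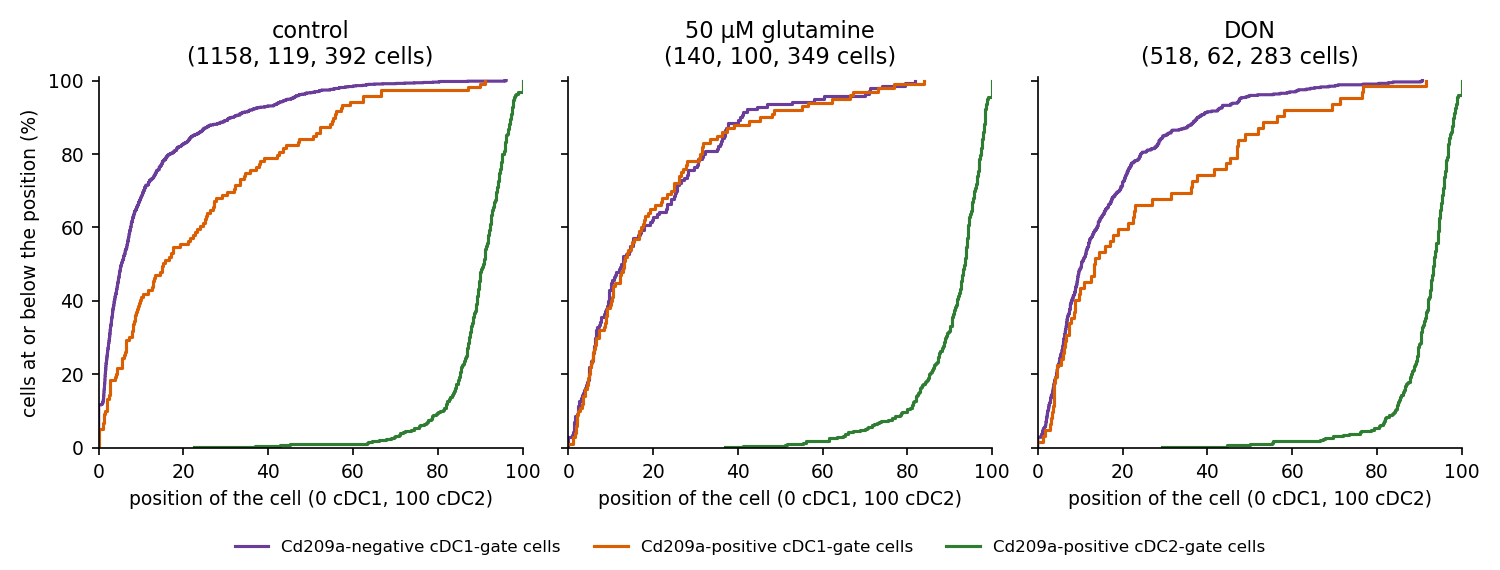
Cumulative percent of cells by position, the share of cDC2-gene UMIs among the UMIs of 37 lineage genes, in 3 classes of each library (cell numbers above each panel in the order of the legend). The Cd209a-positive and Cd209a-negative cDC1-gate curves nearly coincide at 50 µM glutamine (medians 13.04% and 12.7%) and are apart in the control (15.3% and 5.38%).

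The nearest cells in expression space were mostly cDC1. Among the 20 nearest other cells by 30 principal components, computed without the gate genes and without Cd209a-positive cDC1-gate cells as candidates, a mean of 64.5% (control), 62.3% (50 µM) and 66.0% (DON) were Cd209a-negative cDC1-gate cells. For the Cd209a-negative cells themselves the means were 77.0%, 59.4% and 70.9%, and for Cd209a-positive cDC2-gate cells 0.778%, 0.315% and 0.671%. Neighbours of Cd209a-positive cDC1-gate cells were in the cDC2 gate in 4.96%, 5.45% and 6.21% of cases. More cDC1 than cDC2 neighbours were found for 106 of 119, 88 of 100 and 54 of 62 Cd209a-positive cells.

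Of the Cd209 family, Cd209b, Cd209f and Cd209g had 0 UMIs in the Cd209a-positive cells of every library. Cd209c and Cd209d, relatives with the same lectin fold, were cDC2 genes in these cultures. Cd209c had 12.6, 6.39 and 5.52 CPM in Cd209a-positive cDC1-gate cells (control, 50 µM, DON), 1.02, 3.58 and 1.25 in Cd209a-negative cells, and 36.1, 23.5 and 31.7 in Cd209a-positive cDC2-gate cells. Cd209d had 7.82, 10.0 and 7.73 against 0.787, 5.02 and 0.470, with 23.1, 34.7 and 36.2 in the cDC2 gate. Both were thus between the 2 classes in every library, from 5 to 21 UMIs in Cd209a-positive cells and 3 to 13 in Cd209a-negative cells.

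Cd209e behaved differently. Its level in Cd209a-positive cDC1-gate cells was 19.3 CPM in the control (13.2 to 27.2), 46.5 at 50 µM glutamine (34.7 to 61.2) and 8.83 with DON (3.81 to 17.4). In Cd209a-negative cDC1-gate cells it was 1.10 (0.603 to 1.85), 18.6 (12.2 to 27.3) and 2.35 (1.31 to 3.88). In Cd209a-positive cDC2-gate cells, which held far more Cd209a, it was 0.304, 0.331 and 0.754, from 1, 1 and 2 UMIs. At 50 µM glutamine the intervals of both cDC1 classes lay above that of Cd209a-positive cDC2-gate cells, and Cd209e was thus not a cDC2 gene in these cultures. Cd209e was singled out after its values were seen. Its class difference was 2.41 on the log2 scale (SE 0.496) with an adjusted p of 0.141 by edgeR's quasi-likelihood test, so it did not pass. It ranged from 1.48 to 3.26 over 14 alternative settings, lowest without the control and highest without the 50 µM library, and passed in 3 of them (without the 50 µM library, without barcodes above 15000 UMIs, and without a filter on low counts).

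Counted by cell, Cd209e had a UMI in 17 of 119 Cd209a-positive cells in the control (14.3%), 29 of 100 at 50 µM glutamine (29.0%) and 5 of 62 with DON (8.06%). In Cd209a-negative cells the shares were 1.12%, 10.0% and 2.32%, in the cDC2 gate 0.137%, 0.205% and 0.289%, and in the pDC gate 0.150%, 0.275% and 0.171%. The 32, 51 and 8 Cd209e UMIs of the Cd209a-positive cells thus came from 17, 29 and 5 cells. Of all cells with a Cd209e UMI in a library, 51.7% (30 of 58), 57.3% (43 of 75) and 47.2% (17 of 36) were in the cDC1 gate. Reads that match several Cd209 genes could be assigned unevenly, and how they were counted is not given in the sources used here. The Cd209a-positive cDC2-gate cells held 1200, 998 and 841 Cd209a UMIs beside 1, 1 and 2 Cd209e UMIs.

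**Figure D5:**
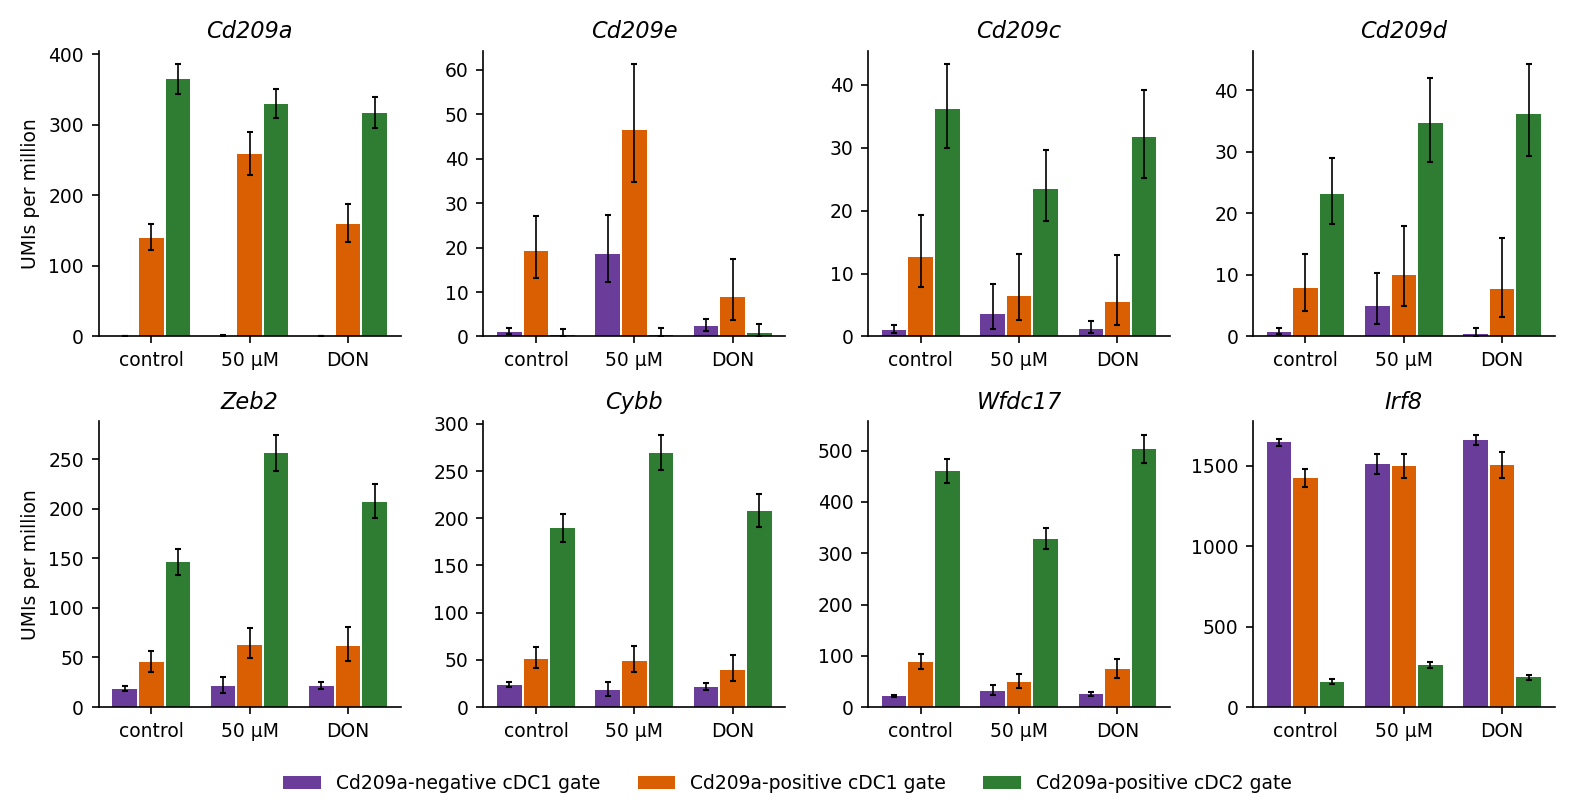
CPM of 8 genes in Cd209a-negative cDC1-gate, Cd209a-positive cDC1-gate and Cd209a-positive cDC2-gate cells of each library, from summed counts with exact Poisson 95% intervals. Cd209a is 0 in the negative class by selection. Cd209e is seen in the cDC1 gate, highest at 46.5 in Cd209a-positive cells at 50 µM glutamine, while Cd209c, Cd209d, Zeb2, Cybb and Wfdc17 are highest in the cDC2 gate.

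The class difference was tested over all genes with the 3 libraries as replicates. Counts were summed per class and library, giving 6 sums, and edgeR's quasi-likelihood test with a library term was run on 8621 genes, without the gate genes. It called 12 genes higher in Cd209a-positive than in Cd209a-negative cells (0.139% of genes tested) and 1 lower (0.0116%) at an adjusted p below 0.05. All 13 had the same direction in all 3 libraries. At an unadjusted p below 0.05 there were 344 higher (3.99%) and 272 lower genes (3.16%), 7.15% in all, and the DESeq2 Wald test called 4 higher (Wfdc17, Zeb2, Ifitm3 and Clec4n) and 0 lower. The classes come from the same cultures and droplets, so the test speaks of these 3 libraries, with the depth and doublet marks above moving with the class.

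Zeb2, a repressor that takes part in cDC2 and pDC development and opposes the cDC1 fate, had the smallest adjusted p. It stood at 45.1, 63.0 and 61.8 CPM in Cd209a-positive cells of the control, 50 µM and DON libraries, and at 18.7, 20.8 and 21.1 in Cd209a-negative cells. The log2 difference was 1.43 (SE 0.145, adjusted p = 0.000528 by edgeR), and the Cd209a-positive cDC2-gate cells had 146, 256 and 207. The sum of the Cd209a-positive cells was thus the higher one in each library. Within them Zeb2 was uneven. Cells with 1, 2 and at least 3 Cd209a UMIs had 100.3, 24.4 and 40.25 CPM at 50 µM glutamine. Those values were 32.3, 60.7 and 69.3 in the control, and 35.7, 156.5 and 58.9 with DON. Without barcodes above 15000 UMIs the difference was 0.81, and with gates on cells thinned to 4000 UMIs 0.90, and neither passed.

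Cybb, the catalytic subunit of the phagocyte NADPH oxidase, had 51.2, 49.3 and 39.8 CPM against 23.9, 17.9 and 21.5 in Cd209a-negative cells. Its log2 difference was 1.11 (SE 0.151, adjusted p = 0.00768 by edgeR). With gates on thinned cells the Cybb difference was 0.50 and did not pass, nor did it pass without barcodes above 15000 UMIs, with at least 5 of the 9 cDC1 genes, without the control library or by DESeq2. Wfdc17, a small secreted protein of myeloid cells, had 88.5, 49.3 and 74.0 against 21.3, 31.5 and 25.5, with a log2 difference of 1.63 (SE 0.201, adjusted p = 0.00772 by edgeR). Wfdc17 was thus nearer to the Cd209a-negative cells at 50 µM glutamine than in the other libraries. The remaining genes of at least 20 CPM in every library were the inhibitory receptor Cd300a (log2 difference 0.84), the zinc finger repressor Trps1 (0.93), the cell cycle inhibitor Cdkn1a (0.69) and the antiviral membrane protein Ifitm3 (0.47). Under 14 alternative settings each, Cd300a and Cdkn1a lost the call in 6, Trps1 in 7 and Ifitm3 in 4. Cdkn1a was highest at 50 µM glutamine, with 157 CPM against 88.9 in Cd209a-negative cells there and 166 in Cd209a-positive cDC2-gate cells. With at least 5 of the 9 cDC1 genes its log2 difference was 0.22.

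Clec4n, a C-type lectin that binds fungal mannans, had the largest of these differences. It stood at 23.5, 11.9 and 11.0 CPM against 2.83, 1.43 and 2.82 in Cd209a-negative cells, a log2 difference of 2.72 (SE 0.339, adjusted p = 0.00368 by edgeR). These levels came from 39, 13 and 10 UMIs against 36, 2 and 18. Of 12 alternative settings Clec4n lost the call in 2, with at least 2 Cd209a UMIs and without the control library. It had no value without barcodes above 15000 UMIs or with gates on thinned cells. The other calls, named after their values were seen because they fell under the limit of 20 CPM, were the interferon-induced Rtp4 and Oasl2 and the lectin-like genes Clec2i and Clec4a1. All 12 higher genes were also higher in Cd209a-positive cDC2-gate cells than in Cd209a-negative cDC1-gate cells in every library. The share of all tested genes with that direction was not computed. The single lower gene was Ngp, a neutrophil granule protein, at 5.42, 7.30 and 8.83 against 23.4, 9.32 and 60.5. Neutrophil genes as a list summed to 61.4 to 86.1 CPM in Cd209a-positive cells and 86.7 to 774 in Cd209a-negative cells, and their part in this call was not tested.

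The lineage lists gave the following counts. Of 26 cDC2 genes tested, 4 passed as higher (Zeb2, Clec4n, Ifitm3 and Cd300a) and 0 as lower, with a median log2 difference of 0.86 beside -0.00381 over all genes. At an unadjusted p below 0.05, 20 of the 26 were higher and 0 lower, beside 3.99% and 3.16% of all genes tested. Irf4, the cDC2 transcription factor, was at 12.04, 6.39 and 6.63 CPM against 2.76, 1.43 and 3.13, a log2 difference of 1.80 that did not pass (adjusted p = 0.108 by edgeR). The integrin Itgam was at 32.5, 26.5 and 33.1 against 14.8, 25.8 and 15.2 (adjusted p = 0.129 by edgeR), so that at 50 µM glutamine its 2 values were close. Ccr2, a chemokine receptor, was at 274, 267 and 339 against 247, 264 and 288 and did not pass either. Il1rn and Esam had 0 UMIs in the Cd209a-positive cells of every library.

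Of 23 cDC1 genes outside the gate, 0 passed in either direction by edgeR or DESeq2, with a median log2 difference of -0.14. At an unadjusted p below 0.05, 8 were lower and 2 higher, beside 3.16% and 3.99% of all genes tested. Irf8, which commits cells to cDC1, had 1424, 1498 and 1505 CPM in Cd209a-positive cells and 1646, 1510 and 1660 in Cd209a-negative cells, against 159, 261 and 184 in Cd209a-positive cDC2-gate cells. Id2, an inhibitor of E proteins needed for cDC1, had 1023, 1035 and 934 against 1204, 1116 and 1041. Both were slightly lower in Cd209a-positive cells in all 3 libraries and neither passed, with adjusted p-values of 0.38 and 0.112 by edgeR. Wdfy4, needed for cross-presentation, had 302, 328 and 264 against 338, 354 and 292.

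The label cDC1 thus rests on these genes outside the gate. The cDC1 genes of the gate are given as a description only, since the rule fixed their level. Xcr1 was at 89.1, 71.2 and 48.6 CPM in Cd209a-positive cells, 146, 85.3 and 46.0 in Cd209a-negative cells, and at most 0.331 in Cd209a-positive cDC2-gate cells. Clec9a was at 53.6, 81.2 and 47.5 against 78.3, 81.0 and 58.4. Batf3 was at 122, 108 and 126 against 163, 133 and 165, and so lower in all 3 libraries. Naaa, a lysosomal acid amidase, was at 504, 468 and 353 against 582, 523 and 353. The summed level of the 9 gate genes was 1384, 1321 and 1177 against 1694, 1541 and 1256, with 99.3, 54.9 and 75.4 in the cDC2 gate.

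Markers of other cells were examined as well. Of the 8 pDC genes tested 0 passed by edgeR or DESeq2 (2 higher at an unadjusted p below 0.05), and the 15 pDC genes summed to 550 to 624 CPM in Cd209a-positive and 546 to 562 in Cd209a-negative cells, with Klk1, Klk1b27 and Pacsin1 at 0 in the former. In the control, 50 µM and DON libraries the 9 B-lineage genes summed to 6.02, 8.21 and 18.8 CPM in Cd209a-positive and 5.83, 15.1 and 4.86 in Cd209a-negative cells. The 9 genes of T, NK and innate lymphoid cells summed to 22.3, 3.65 and 5.52 against 9.45, 5.73 and 7.83, with Klrb1c, Ncr1 and Gzma at 0 in the Cd209a-positive cells of every library. Basophil and mast cell genes summed to 28.3, 0 and 3.31 against 13.4, 2.15 and 1.88, and in the control Cd200r3 was at 10.2 against 0.866 and Cpa3 at 7.82 against 1.02. Monocyte and macrophage genes summed to 117, 178 and 98.3 against 137, 115 and 138, with Fn1 at 0. The part of these cells in the results was not tested. The 10 genes of transitional dendritic cells, which share pDC and cDC2 features, had 6 tested members and 0 calls by either tool (2 higher at an unadjusted p below 0.05), with Cd8a at 0. Of 10 maturation genes tested 0 passed by either tool or at an unadjusted p below 0.05. Of the 12 MHC class II genes 0 passed by either tool and 8 were higher at an unadjusted p below 0.05 (3.99% over all genes), with a median log2 difference of 0.13 beside -0.00381.

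Barcodes of 2 lineages by gene content were counted as a further description. At least 2 of the 6 cDC2-gate genes were present in 29 of 119 Cd209a-positive control cells (24.4%, 17.0 to 33.1%) and in 9.76% of Cd209a-negative cells (8.11 to 11.6%). At 50 µM glutamine the shares were 14% (7.87 to 22.4%) and 9.29% (5.04 to 15.4%), and with DON 19.4% (10.4 to 31.4%) and 12.5% (9.82 to 15.7%). Only the control intervals did not overlap. The Cd209a-positive cells with 2 such genes were deep, with medians of 17627, 15151.5 and 18126.5 UMIs, and Scrublet marked 13 of the 29, 4 of the 14 and 0 of the 12.

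The libraries did not contribute equally to the class difference. Without the 50 µM library, edgeR called 76 genes higher and 43 lower in Cd209a-positive cells. Of the 76, 58 were at least 2-fold higher in Cd209a-positive cDC2-gate than in Cd209a-negative cDC1-gate cells in both remaining libraries. Of the 43, 7 were at least 2-fold higher in the Cd209a-negative cDC1-gate cells. The shares of all tested genes that differ this much were not computed, so these counts have no background beside them. Without the control it called 7 higher and 1 lower, and without DON 14 higher and 0 lower. The 13 genes called with all libraries were still called without the 50 µM library, 5 of them without the control and 8 without DON. Zeb2 was called in each of these fits, and Wfdc17 was not called without DON.

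Within the Cd209a-positive cells the conditions were compared by size alone. Among 2894 genes of at least 50 CPM in either library, 14 were 2-fold or more above the control at 50 µM glutamine (0.484%) and 15 were 2-fold or more below it (0.518%). In Cd209a-negative cells 8 (0.279%) and 13 (0.453%) of 2870 were. Of 17 measured glycolysis genes, 14 were at least 1.5-fold lower in Cd209a-positive cells, with a median log2 ratio of -1.07. Over all 9176 genes measured the median was 0.08 and 4.27% were that much lower. In Cd209a-negative cells 12 of the 17 were, with a median of -0.96. Pgk1, a glycolytic kinase, was at 499 CPM in control and 162 in 50 µM Cd209a-positive cells. Ankrd37, a target of hypoxia-inducible factor, was at 75.2 and 5.48. The Cd209a-negative cells moved alike, Pgk1 from 533 to 179 and Ankrd37 from 54.3 to 5.02.

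Other genes of Cd209a-positive cells were higher at 50 µM glutamine. The integrin Itga1 was at 237 against 86.7 CPM in the control, and the NF-kB target Tnfaip2 at 183 against 72.8. Lyz2, lysozyme of myeloid cells, was at 1549 against 672. In Cd209a-negative cells these 3 were at 214 against 79.9, 186 against 72.2 and 1233 against 678, so the direction was common to both classes. Of 13 measured NF-kB and inflammatory genes 10 were at least 1.5-fold higher in Cd209a-positive cells (median log2 ratio 0.99), and 4 of 11 in Cd209a-negative cells (0.34). Over all genes 9.74% and 4.59% were that much higher. Klrd1, a lectin-like gene of the cDC2 set, was lower, at 21.0 against 65.6.

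With DON, 28 of 2890 genes were 2-fold or more above the control (0.969%) and 4 were 2-fold or more below it (0.138%) in Cd209a-positive cells, beside 1 (0.036%) and 3 (0.108%) of 2779 in Cd209a-negative cells. Genes of G2 phase and mitosis were among the higher ones. Of 20 such genes 19 were at least 1.5-fold higher in Cd209a-positive cells, with a median log2 ratio of 1.12, against 0 of 20 and 0.34 in Cd209a-negative cells. Over all genes 7.21% and 0.587% were that much higher, with medians of 0.06 and 0.07. Cenpf, a kinetochore protein, was at 297 CPM against 79.4 in the control, and at 184 against 139 in Cd209a-negative cells. Ccnb1, the mitotic cyclin, was at 91.6 against 24.1, and at 57.0 against 45.8. Part of this ratio lies in the control, where the list was lower in Cd209a-positive than in Cd209a-negative cells (median log2 -0.52), while with DON it was higher (0.28). With 62 DON cells and 1 library per condition, no test of this difference could be made.

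On the lower side with DON, Ctla2b, a cDC1 gene that encodes a protease inhibitor, was at 140 in the control and 48.6 CPM with DON in Cd209a-positive cells and at 166 and 44.2 in Cd209a-negative cells. Ankrd37 was at 21.0 against 75.2 in the control. The cDC1 genes outside the gate had a median log2 ratio of -0.24 over 23 genes in Cd209a-positive and -0.39 over 24 genes in Cd209a-negative cells. Sterol synthesis genes had 0.44 and 0.41 over 18 genes. In these lists both cDC1 classes had similar medians, and the difference between the classes was not tested.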

How the data were processed

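The deposited matrices hold UMI counts per gene and barcode for 3 libraries (Single Cell 3' v3, per the labels' protocols). The authors made them with Cell Ranger, named as version 3.1.0 in the submitters' processing notes and 6.0.0 in the file headers, on mm10; the filters are not given in the sources used here. All gates, sums, shares and levels were computed here from these counts (Python 3.11.15, numpy 2.4.6, scipy 1.17.1, scanpy 1.11.5). Levels are counts per 1000000 UMIs of a class sum (CPM), and list ratios are log2 with 5 CPM added to both sides. Scrublet used an expected rate of 0.08. Class differences were tested with edgeR 4.0.16 (TMM, filterByExpr, quasi-likelihood, library term, Benjamini-Hochberg over 8621 genes), which was tested on simulated data, and with DESeq2 1.42.0 as an alternative. Named genes were those past an adjusted p of 0.05 with at least 20 CPM in the higher class of every library, the lineage lists and the Cd209 family. Of 336 listed genes, 6 were not used because their symbol was absent or shared by 2 gene IDs. No label says whether the 3 cultures were started separately. With the library term, p-values set the class difference against its variation over these 3 libraries. The spread of each gene was estimated with information from all genes tested. Each library is of another condition, so variation with the condition is part of that spread. The members, lists and limits were chosen with earlier results of these data known. Of the gene IDs, 99.6% matched GENCODE vM21, and start-site windows came from RefSeq.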

Additional observations from a re-analysis of the deposited data

Results flagged for a closer look

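The share of cells with Cd209a moved in opposite directions in the 2 gates at 50 µM glutamine. In the cDC1 gate it was 32.4 percentage points higher than in the control (41.7% against 9.32%). In the cDC2 gate the change was -9.04 percentage points (17.9% against 26.9%). With 1 library per condition this difference was not tested.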

How the results depend on the processing

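Without replicate libraries, depth and counting error limit every value per condition, and the DON values rest on 62 cells. Of 105 alternative values of shares, depth ratios, positions and neighbours, 79 stayed within the counting interval or interquartile range of the reported value, and the cause of the other shifts was not tested. With Cd209a of at least 2 UMIs the share of the cDC1 gate was 3.52%, 25.4% and 4.83% in the control, 50 µM and DON libraries. Positions under that rule were 31.8%, -8.41% and 13.96% by the cDC1 genes (same order), and 18.8% by the cDC2 genes with DON. Without barcodes above 15000 UMIs the control share was 7.12% and its depth ratio 1.05. The positions were then 6.14% by cDC2 and 25.1% by cDC1 genes in the control, -12.9% by cDC1 genes at 50 µM glutamine, and 1.65% and 5.35% with DON. With gates on cells thinned to 4000 UMIs the shares were 2.91%, 28.6% and 4.62%, and the depth ratios 1.00, 0.872 and 0.851. Positions by cDC2 genes were then 8.45% in the control and -0.465% at 50 µM glutamine, and by cDC1 genes 35.4% with DON. The control position by cDC2 genes was 11.2% without Scrublet-marked barcodes and 13.4% with Siglech at 0, and the DON position by cDC1 genes was 5.73% with genes at least 8-fold apart.

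The count of 12 higher genes and 1 lower gene was 4 and 0 with at least 5 of the 9 cDC1 genes, 4 and 0 with the DESeq2 Wald test, 4 and 0 without the library term, and 6 and 0 without barcodes above 15000 UMIs. Without a filter on low counts it was 66 and 40. The lower count was 0 without Scrublet-marked barcodes, 3 at no more than 5% mitochondrial UMIs and 11 with thinned gates, while the higher count stayed within 1.5 times of 12. Leaving out 1 library gave 7 to 76 higher and 0 to 43 lower genes. Clec4a1 had a log2 difference of -0.00601 without barcodes above 15000 UMIs. No paired analysis of the conditions was possible because each condition has 1 library. The classes were paired within each library by the library term.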
